A study of Mus musculus with 18 samples.

Results

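PU.1, C/EBPα and C/EBPβ were located at 8 macrophage genes of lipid handling (*Pparg*, *Nr1h3*, *Abca1*, *Abcg1*, *Apoe*, *Cd36*, *Lpl* and *Plin2*) while pre-B cells were converted into macrophage-like cells. The genes were chosen for their role, with earlier results of these data known. The locus of each was its mm9 gene span in GENCODE vM1 plus 20 kb on either side, out of 22367 protein-coding loci. The 18 ChIP-seq libraries came from C10 cells, a derivative of the HAFTL pre-B cell line that carries a C/EBPαER-GFP fusion, which β-Est moves into the nucleus. C/EBPα was profiled at 0 hpi, at 10, 30 and 60 min and at 3, 12, 24 and 48 hpi. C/EBPβ and PU.1 were profiled at 0, 3, 12, 24 and 48 hpi. Induced cells were also given IL-3 and CSF-1, and control cells received ethanol, the solvent. All groups thus share one line and one transgene. The labels and the methods of the study give different concentrations of β-Est. The C/EBPα antibody was sc-61, and the sources used here do not separate the fusion from the endogenous protein. ChIP libraries measure no RNA, so the cells could not be checked against RNA markers.

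There was 1 library per factor and time, with no replicates. The study's account of its peak calling lists the PU.1 reads of 0 hpi as merged, with their origin not given, and they were taken here as 1 library. Differences are therefore between libraries, no p-value is given for them, and the 95% Poisson intervals cover counting error only. The libraries held 6574957 to 11349498 reads for PU.1, 5968544 to 24909437 reads for C/EBPα and 2901164 to 5843194 reads for C/EBPβ. A value is the number of reads in 200 bp around the centre of a site, per 10000000 reads of the library. A single read was worth 0.401 in the deepest library, C/EBPα at 10 min. A site was called in a library where a 200-bp bin passed a Poisson p of 1e-07 at a density at least 4 times that of the 10 kb around it, which needed 7 to 15 reads. Adjacent called bins of all libraries were merged into 1 site. The C/EBPα libraries of 10, 30 and 60 min came from a HiSeq2000 and the other 15 libraries from a GA IIx sequencer, so sequencer and time cannot be told apart there. Outside called regions, bins with at least 60% GC held 0.833 to 0.879 times the reads of bins with 40% to 50% GC in these 3 libraries and 1.37 to 2.04 times in the other 5 C/EBPα libraries. The ratio was 0.732 to 1.03 for C/EBPβ, 0.738 to 1.03 for PU.1 at 0, 3 and 48 hpi, and 1.39 and 1.81 for PU.1 at 24 and 12 hpi.

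Macrophages take up modified lipoproteins and fatty acids, store the surplus in lipid droplets and export cholesterol to lipoprotein particles. The nuclear receptors PPARγ and LXRα, which pair with retinoid X receptors, sense fatty acids and oxysterols and induce many of the transporters and apolipoproteins involved. PU.1 is an ETS factor present in B cells at lower levels than in macrophages, and the C/EBP factors are bZIP proteins of the myeloid lineage that recognise related sequences.

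The 8 loci together held 70 of the 76650 sites of the series. *Abca1* had 16, *Cd36* 15, *Pparg* and *Abcg1* 10 each, *Plin2* 9, *Nr1h3* and *Apoe* 4 each, and *Lpl* 2. Of the sites 44 were in introns, 22 between genes, 3 in UTRs and 1 in a coding exon, and 13 (18.6%) lay within 1000 bp of a gene start, against 14.5% in the series. PU.1 was called at 54 sites in at least 1 library, C/EBPα at 32 and C/EBPβ at 23. Over the 814105 bp of the 8 loci this came to 3.93 C/EBPα, 2.83 C/EBPβ and 6.63 PU.1 sites per 100 kb, against 1.83, 0.902 and 3.93 over all protein-coding loci. At 34 sites PU.1 alone was called (48.6%, against 58.2% in the series) and at 12 all 3 factors were called (17.1%, against 8.64%), not necessarily in the same library.

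At 0 hpi 2 of the 8 loci had a C/EBPα site, *Nr1h3* and *Abcg1*, where 10.0% of all protein-coding loci had one. At 10 min 2 loci had one, *Nr1h3* and *Apoe*, against 23.6% of all loci, and at 30 min 3 loci, *Apoe*, *Cd36* and *Plin2*, against 32.1%. From then on the numbers were 7 at 60 min (40.6% of all loci), 7 at 3 hpi (42.4%), 7 at 12 hpi (32.9%), 6 at 24 hpi (27.2%) and 6 at 48 hpi (25.4%). At 60 min *Pparg* counted only through a call at +14.2 kb that lay away from the centre of its site, where the value was 2.05. *Lpl* counted only through its +34.3 kb site, with 6.65. Over the gene span alone, without the 20 kb on either side, 2 of the 8 loci had a C/EBPα site at 48 hpi. The shares of all loci given here include the 20 kb, so they are no measure for that count. The members' loci span 43058 to 169181 bp, while the median locus spans 55427 bp. Among the 16390 loci within that range of lengths, 44.1% had a C/EBPα site at 60 min and 27.9% at 48 hpi. The range takes in most loci and does not match the length of each member. *Pparg*, *Abca1* and *Cd36* span at least 147270 bp.

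C/EBPβ was called at no member locus at 0 hpi, when 3.84% of all loci had a site. It was called at 6 loci at 3 hpi (16.7% of all loci), 3 at 12 hpi (11.5%), 4 at 24 hpi (20.5%) and 6 at 48 hpi (36.7%). The C/EBPβ libraries of 12 and 24 hpi were the shallowest of the series. PU.1 was called at 6 loci at 0 hpi (57.6% of all loci), all but *Apoe* and *Lpl*, and at all 8 loci at 3 hpi (60.2%), 12 hpi (72.0%), 24 hpi (65.8%) and 48 hpi (63.1%).

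**Figure D1:**
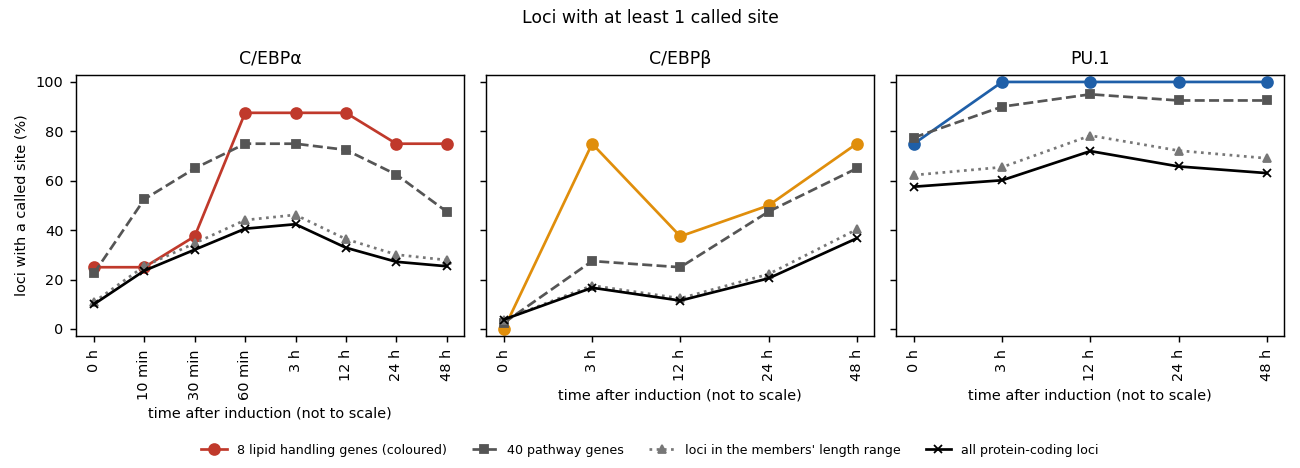
Percent of loci with at least 1 called site in each library, by factor and time after induction (time not to scale), for the 8 lipid handling genes (coloured), 40 other genes of the pathway (dashed), loci in the members' range of lengths (dotted) and all 22367 protein-coding loci (black). For C/EBPα the members lie near all loci at 10 and 30 min and above them from 60 min, when 7 of 8 were called. Among the 40, the loci of *Apoc1* and *Apoc2* overlap that of *Apoe*.

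At the level of sites, C/EBPα was called at 2 of the 32 member sites at 0 hpi, 2 at 10 min, 7 at 30 min, 16 at 60 min, 23 at 3 hpi, 17 at 12 hpi and 12 at both 24 and 48 hpi. These are 6.25%, 6.25%, 21.9%, 50.0%, 71.9%, 53.1%, 37.5% and 37.5% of the member sites, against 6.42%, 24.6%, 45.1%, 64.0%, 60.4%, 32.3%, 25.5% and 22.6% of the C/EBPα sites of the series. The number of called sites thus went up and then down in the series as well, and the member share at 0 hpi was that of the series. Of the 32 sites, 3.12% were first called at 10 min, where 20.3% of all C/EBPα sites of the series were. The highest value fell in the 3 hpi library at 10 of the 32 sites and in the 12 hpi library at 11, and in the 30 or 60 min library at 2. The member shares for 3 and 12 hpi were 31.2% and 34.4%, against 30.3% and 18% in the series, where the 30 and 60 min libraries held the highest value at 16.6% and 20.7% of C/EBPα sites. The 12 member sites of 48 hpi had all been called at 3 hpi, so 12 of the 23 sites of 3 hpi were still called at 48 hpi, against 27.7% of 3 hpi sites of the series. A value at 48 hpi at least 2-fold below that at 3 hpi, with intervals that do not overlap, was found at 6 of the 23 sites, against 42.4% in the series. These were the +63.4 kb site of *Pparg*, the +9.21, +12.4 and +34.9 kb sites of *Abca1* and the +40.5 and +55 kb sites of *Cd36*, where distances run from the gene start along the gene.

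The values of 0 and 48 hpi were compared by the same rule of 2-fold with separate intervals. Of the 12 member sites called for C/EBPα at either time, 9 were higher at 48 hpi (50.5% of such sites of the series) and 0 lower (1.8%). For C/EBPβ 14 of 20 were higher (54.8%) and 0 lower (0.148%). For PU.1 16 of 38 were higher (16.2%) and 0 lower (10.8%). All 20 C/EBPβ sites, 10 of the 12 C/EBPα sites and 25 of the 38 PU.1 sites were called at 48 hpi and not at 0 hpi. A site that entered through its 48 hpi call is favoured to be higher and could hardly be lower at 48 hpi, so these counts describe the sites and support no direction. For PU.1 the series is not a like set either, since 25121 of its 40806 sites were called at 0 hpi, against 13 of the 38 member sites. *Cd36* held 5 of the 9 C/EBPα sites, 6 of the 14 C/EBPβ sites and 6 of the 16 PU.1 sites that were higher. The others for C/EBPα were at *Apoe*, *Abca1* and *Abcg1*. At *Pparg*, *Lpl* and *Plin2* only PU.1 sites met the rule, and at *Nr1h3* only 1 C/EBPβ site did.

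**Figure D2:**
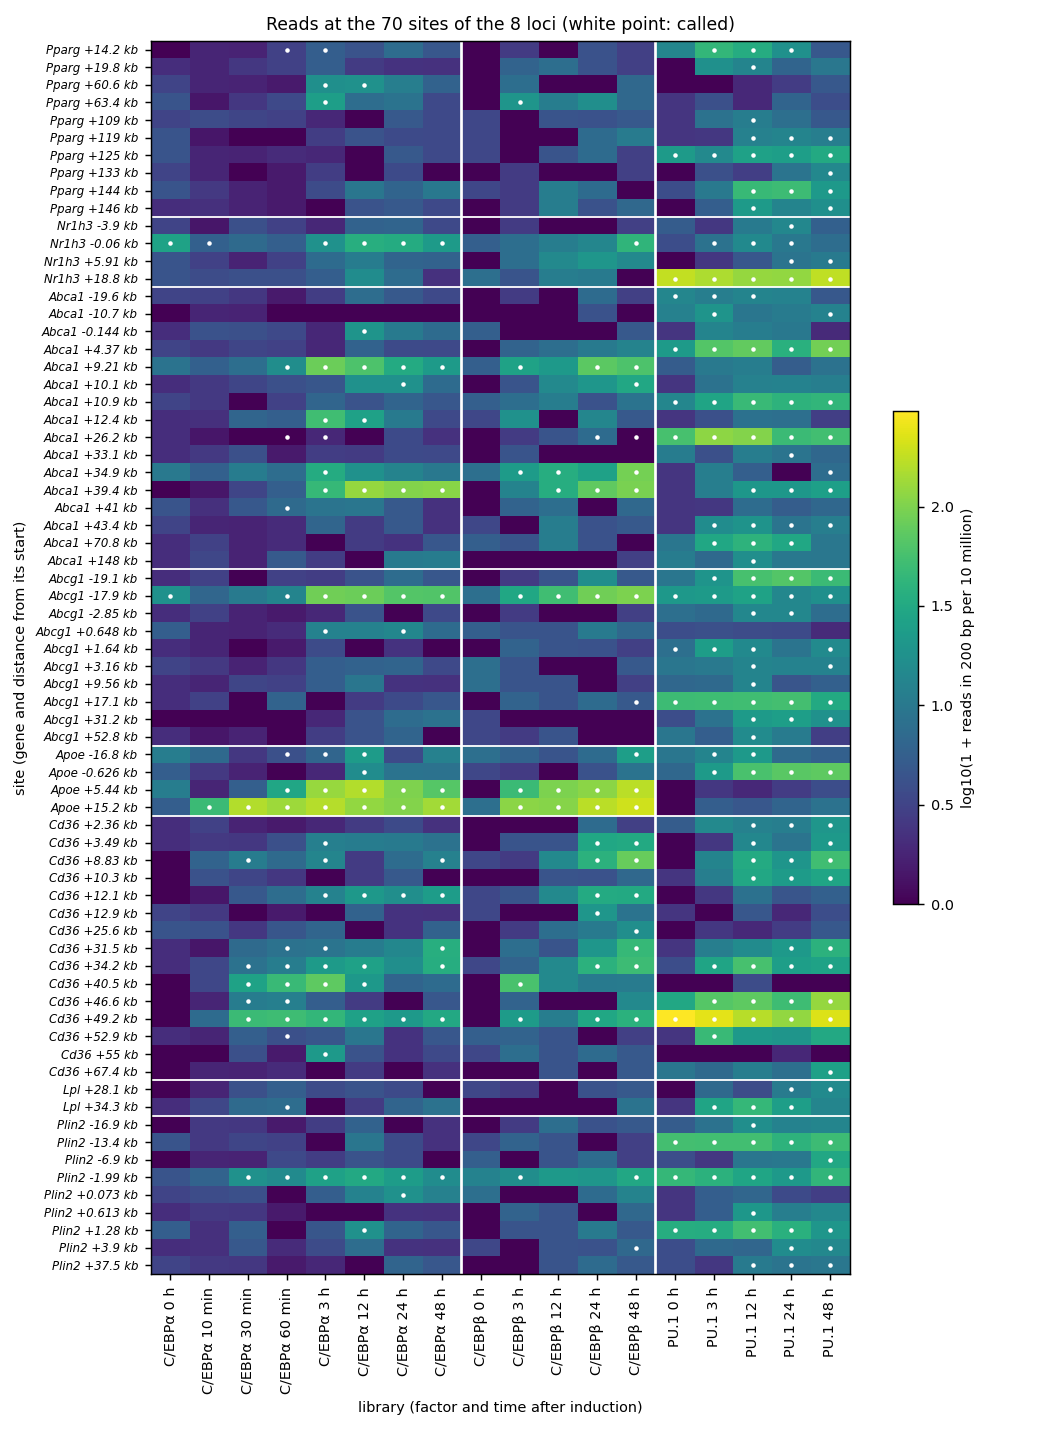
Reads at each of the 70 sites (rows, by gene and distance from its start) in each of the 18 libraries (columns, by factor and time after induction), as log10 of 1 plus the reads in 200 bp per 10000000, with a white point where the site was called. The C/EBPα block has 2 points in its 0 h column and 23 at 3 h, the C/EBPβ block has none at 0 h and 20 at 48 h, and the PU.1 block has 13 at 0 h and 37 at 48 h.

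At the nuclear receptor genes, PU.1 was called at 8 of the 10 sites of *Pparg* and all 4 of *Nr1h3*, where 76.9% of all sites of the series were PU.1 sites. *Pparg* (ENSMUSG00000000440, chr6:115311239-115440419, plus strand) encodes PPARγ, the fatty acid receptor that drives *Cd36* and *Plin2* among others. Its highest C/EBPα value was at +63.4 kb in an intron (chr6:115374561-115374760). C/EBPα reads there were 3.38 at 0 hpi, 0.401, 1.54 and 2.56 at 10, 30 and 60 min, 23.4 at 3 hpi, and 6.7, 7.91 and 2.51 at 12, 24 and 48 hpi. The interval of 3 hpi (15.3 to 34.2) lay above that of 48 hpi (0.304 to 9.08). C/EBPβ at this site was 0 at 0 hpi, 18.8 at 3 hpi, and 10.3, 16 and 5.91 at 12, 24 and 48 hpi, called at 3 hpi alone. A further C/EBPα site, at +60.6 kb and 203 bp from an annotated *Pparg* start, was called at 3 and 12 hpi (16.2 and 16.8). No C/EBPα site was called at *Pparg* at 48 hpi.

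The highest PU.1 value at *Pparg* was at +144 kb, beyond the 3′ end of *Pparg* (chr6:115455091-115455290). The reads of PU.1 were 2.84, 9.13, 45.7, 49.3 and 21 at 0, 3, 12, 24 and 48 hpi, a ratio of 7.41 (1.82 to 65) between 48 and 0 hpi. The 12 and 24 hpi libraries were the high ones, and 48 hpi lay between them and 0 hpi. The single *Pparg* site with PU.1 called in every library was at +125 kb, with 21.3, 13.7, 25.2, 23.8 and 31.5, and there the intervals of 0 and 48 hpi overlapped.

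*Nr1h3* (ENSMUSG00000002108, chr2:91024218-91042991, minus strand) encodes LXRα, the oxysterol receptor that induces *Abca1*, *Abcg1* and *Apoe*. Its start lies next to that of *Acp2*, a lysosomal phosphatase gene, and the locus also overlaps *Madd* and *Ddb2*. The only C/EBPα site was the one at this shared start (chr2:91042951-91043150), which is annotated as *Acp2* UTR. C/EBPα reads were 25.9 at 0 hpi, 4.82, 6.15 and 4.61 at 10, 30 and 60 min, and 17.1, 35.2, 33 and 21.4 at 3, 12, 24 and 48 hpi. The 3 HiSeq libraries were the low ones, and the intervals of 0 and 48 hpi overlapped (ratio 0.824, 0.413 to 1.61). The window has 59.5% GC, and the C/EBPα reads at this site moved with the GC ratio of the C/EBPα libraries given above. The part of GC content in these reads was not tested. C/EBPβ was 4.67, 6.85, 10.3, 12.8 and 41.4 at 0, 3, 12, 24 and 48 hpi, higher at 48 hpi by a ratio of 8.86 (2.17 to 78).

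The strongest PU.1 site in the *Nr1h3* locus was at +18.8 kb (chr2:91024091-91024290), 197 bp from a start of *Madd*, a gene of MAP kinase signalling. It had 179, 148, 123, 120 and 175 reads at 0, 3, 12, 24 and 48 hpi and was called in all 5 libraries. The intervals of 0 hpi (149 to 213) and 48 hpi (150 to 202) overlapped, with a ratio of 0.979 (0.776 to 1.24). Within *Nr1h3* itself, at +5.91 kb, PU.1 was 0 at 0 hpi and was called at 24 and 48 hpi with 7.93 and 9.56 reads.

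Among the genes of cholesterol export, *Abca1* and *Apoe* had no C/EBPα or C/EBPβ site called at 0 hpi. Most C/EBP sites share this, since 6.42% of C/EBPα sites and 5.1% of C/EBPβ sites of the series were called then. *Abca1* (ENSMUSG00000015243, chr4:53043659-53172767, minus strand) encodes the transporter that passes cholesterol and phospholipid to lipid-poor apolipoproteins. The site with most C/EBPα reads was at +39.4 kb in an intron (chr4:53133281-53133480), which is shown with those of *Apoe*, *Abcg1* and *Cd36* because each had the highest C/EBPβ value of its locus, was higher at 48 hpi for C/EBPα and C/EBPβ and holds the C/EBP consensus. The +12.1 and +31.5 kb sites of *Cd36*, not shown, were also higher for both and hold the consensus. Capitals mark matches to the C/EBP consensus TTGCNNAA and the AP-1 words TGACTCA and TGAGTCA on either strand, in the mm9 plus strand.
*Abca1* +39.4 kb: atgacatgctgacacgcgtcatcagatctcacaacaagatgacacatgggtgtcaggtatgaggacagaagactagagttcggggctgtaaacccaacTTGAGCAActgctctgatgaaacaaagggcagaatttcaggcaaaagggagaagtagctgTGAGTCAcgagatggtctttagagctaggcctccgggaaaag
*Abcg1* -17.9 kb: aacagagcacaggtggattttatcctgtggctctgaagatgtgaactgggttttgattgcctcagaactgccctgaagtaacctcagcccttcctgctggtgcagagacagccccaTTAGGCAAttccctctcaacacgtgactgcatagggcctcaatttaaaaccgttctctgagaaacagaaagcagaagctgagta
*Apoe* +15.2 kb: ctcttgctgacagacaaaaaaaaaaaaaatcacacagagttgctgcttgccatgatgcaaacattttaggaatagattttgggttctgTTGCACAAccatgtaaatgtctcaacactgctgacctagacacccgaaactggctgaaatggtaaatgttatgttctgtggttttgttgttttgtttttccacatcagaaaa
*Cd36* +8.83 kb: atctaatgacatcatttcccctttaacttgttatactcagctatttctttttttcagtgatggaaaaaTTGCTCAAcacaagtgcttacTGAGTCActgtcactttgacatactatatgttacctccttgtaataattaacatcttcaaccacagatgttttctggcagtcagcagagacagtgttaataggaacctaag

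The C/EBP match lay 2 bp from the centre at *Abca1*, 20 bp at *Abcg1* (chr17:31176621-31176820), 8 bp at *Apoe* (chr7:20269181-20269380) and 28 bp at *Cd36* (chr5:17385851-17386050). An AP-1 word followed at 61 bp from the centre at *Abca1* and at 8 bp at *Cd36*.

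At the +39.4 kb site of *Abca1*, C/EBPα reads were 0 at 0 hpi, 0.401, 2.31 and 4.61 at 10, 30 and 60 min, 44.9 at 3 hpi, and 122, 105 and 108 at 12, 24 and 48 hpi. The value at 48 hpi (86.5 to 134) was at least 32-fold higher than at 0 hpi against a floor of 3 reads, which is a value of 3.38, and the lower 95% limit of the ratio was 25.4. Other folds against 0 reads use the same floor per library and have their lower 95% limit in brackets. C/EBPβ was 0, 12, 34.5, 73.7 and 94.6 at 0, 3, 12, 24 and 48 hpi, at least 13.5-fold higher (10.6). PU.1 was 1.42, 10.6, 19.6, 19.4 and 23.9, and the ratio of 48 to 0 hpi was 16.8 (2.76 to 692) with 1 read at 0 hpi. All 3 factors were thus low at 0 hpi and called from 12 hpi onwards, with C/EBPα called already at 3 hpi. The intervals of 0 hpi and 60 min overlapped.

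Other intronic sites of *Abca1* differed in their course. At +9.21 kb C/EBPα was 7.89 at 0 hpi, 15.4 at 60 min, 83.6 at 3 hpi and 21.4 at 48 hpi, whereas C/EBPβ was 4.67 at 0 hpi and 70.5 and 61.1 at 24 and 48 hpi. At +12.4 kb C/EBPα was 51.2 at 3 hpi and 2.51 at 48 hpi. At +34.9 kb C/EBPβ reached 90.7 at 48 hpi from 7.01, a ratio of 12.9 (4.16 to 65), while C/EBPα was 9.02 at 0 hpi and 8.8 at 48 hpi. C/EBPα values at these 3 sites were thus highest at 3 hpi, and C/EBPβ was higher at 48 than at 0 hpi at the first and the third.

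PU.1 at *Abca1* was highest at +26.2 kb (chr4:53146461-53146660), with 56.7, 113, 104, 48.5 and 52.6 at 0, 3, 12, 24 and 48 hpi. The 3 hpi interval (88.4 to 141) lay above that of 0 hpi (40.5 to 77.2), and 48 hpi did not differ from 0 hpi beyond counting error (ratio 0.926, 0.605 to 1.43). C/EBPα and C/EBPβ were called in this 1400-bp merged site as well, but away from its centre, where C/EBPα reads were 0 to 2.64. At +4.37 kb PU.1 was 21.3, 65.4, 75.6, 37 and 88.9, a ratio of 4.18 (2.41 to 7.76), and at +10.9 kb it was 12.8 at 0 hpi and 42 at 48 hpi (ratio 3.29, 1.59 to 7.67).

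**Figure D3:**
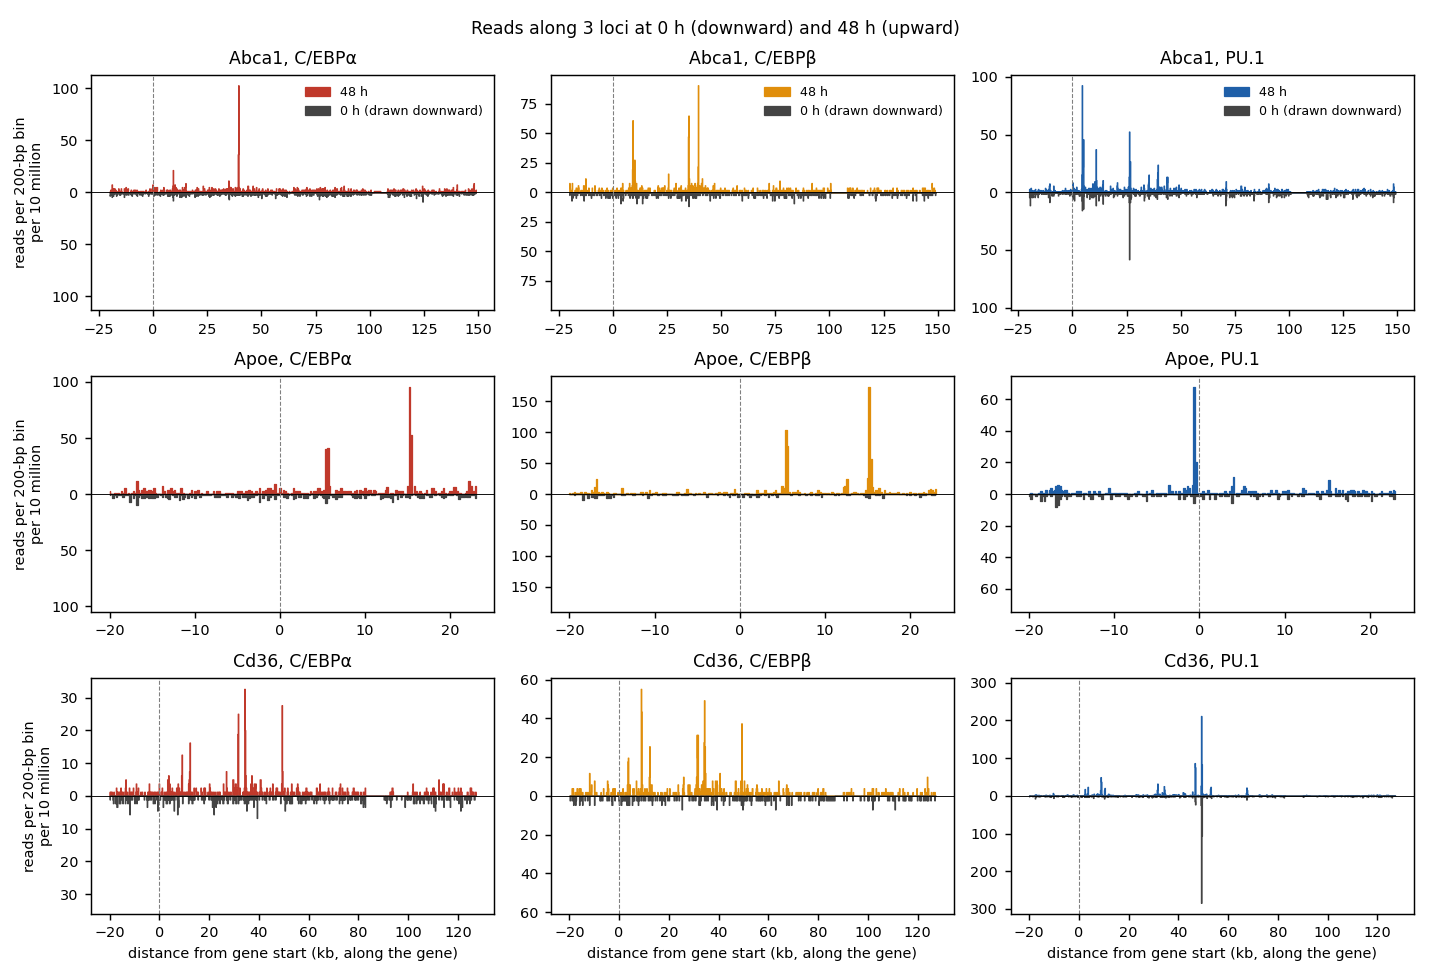
Reads per 200-bp bin per 10000000 along the loci of *Abca1*, *Apoe* and *Cd36* (rows) for the 3 factors (columns), by distance from the gene start along the gene, with 48 hpi upward in colour and 0 hpi downward in grey. C/EBPα and C/EBPβ stand out at 48 hpi alone, at +39.4 kb of *Abca1* and at +5.44 and +15.2 kb of *Apoe*, whereas PU.1 at +26.2 kb of *Abca1* and +49.2 kb of *Cd36* is present at both times.

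*Abcg1* (ENSMUSG00000024030, chr17:31194643-31252722, plus strand) encodes the transporter that passes cholesterol to mature HDL. Its main C/EBP site, at -17.9 kb, was bound by all 3 factors and was called for C/EBPα and PU.1 before induction. C/EBPα was 16.9 at 0 hpi, 5.62, 9.23 and 12.3 at 10, 30 and 60 min, and 86.3, 83.8, 64.6 and 62.9 at 3, 12, 24 and 48 hpi. The 48 hpi value was higher than that of 0 hpi by a ratio of 3.72 (2.05 to 7.12). C/EBPβ was 7.01, 29.1, 51.7, 86.5 and 96.6 at 0, 3, 12, 24 and 48 hpi, a ratio of 13.8 (4.45 to 69.1). PU.1 was 19.9, 21.3, 26.1, 13.2 and 16.2, called at every time and with overlapping intervals at 0 and 48 hpi (ratio 0.818, 0.38 to 1.79).

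PU.1 at the neighbouring -19.1 kb site (chr17:31175461-31175660) was 8.51, 18.3, 56.9, 64.3 and 47.8, a ratio of 5.61 (2.41 to 16) between 48 and 0 hpi. It was above the -17.9 kb site from 12 hpi, whereas the intervals of both sites overlapped at 0 and 3 hpi. C/EBPα there was at most 6.59 and was not called. An intronic site at +17.1 kb had 49.6, 50.2, 51.3, 53.7 and 31.5 PU.1 reads, called at every time. Of the 9 PU.1 sites of *Abcg1*, all were called at 12 hpi, when 79.1% of the PU.1 sites of the series were called. They had 39% to 58.5% GC.

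*Apoe* (ENSMUSG00000002985, chr7:20281458-20284515, minus strand) encodes apolipoprotein E, a ligand for lipoprotein receptors and an acceptor of cellular cholesterol. Its locus also holds *Apoc1*, *Apoc4*, *Apoc2*, *Tomm40* and *Pvrl2*, so its sites cannot be assigned to *Apoe* by position alone. The +15.2 kb site, whose sequence is shown above, lay 2509 bp from a start of *Apoc2* and was the only C/EBPα site of the 8 loci first called at 10 min. C/EBPα was 4.51 at 0 hpi, 47.8, 156 and 129 at 10, 30 and 60 min, and 160, 119, 104 and 135 at 3, 12, 24 and 48 hpi. The interval of 10 min (39.6 to 57.2) already lay above that of 0 hpi (1.23 to 11.6), and the ratio of 48 to 0 hpi was 29.8 (11.3 to 111). Intervals of 30 min (135 to 179) and 48 hpi (110 to 163) overlapped. C/EBPβ was 7.01, 111, 107, 167 and 201 at 0, 3, 12, 24 and 48 hpi, a ratio of 28.7 (9.55 to 141), whereas PU.1 was 0, 4.56, 3.73, 5.29 and 7.64 and was never called.

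The +5.44 kb site (chr7:20278971-20279170), 1064 bp from a start of *Apoc1*, was first called for C/EBPα at 60 min. C/EBPα was 10.2 at 0 hpi, 0.803, 4.62 and 28.2 at 10, 30 and 60 min, and 125, 157, 100 and 66.6 at 3, 12, 24 and 48 hpi, a ratio of 6.56 (3.21 to 15.1) between 48 and 0 hpi. C/EBPβ was 0, 47.9, 96.5, 112 and 166, at least 23.6-fold higher at 48 hpi (18.8). PU.1 was at most 2.87 and not called. At 10 and 30 min C/EBPα was thus high at +15.2 kb and low at +5.44 kb, and from 3 hpi both were high. The windows have 37.5% and 56.5% GC. The value at +5.44 kb was lower at 10 min than at 0 hpi, as at the *Nr1h3* start (59.5% GC) and at -17.9 kb of *Abcg1* (48.5% GC). The part of GC content and sequencer in this order was not tested. Neither the C/EBP consensus nor the AP-1 words occurred in the 200 bp of the +5.44 kb site.

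PU.1 at *Apoe* was gained close to the gene itself. At -0.626 kb (chr7:20285041-20285240), PU.1 was 5.67, 21.3, 57.9, 69.6 and 71.7 at 0, 3, 12, 24 and 48 hpi and was called from 3 hpi. The interval of 48 hpi (56.4 to 89.8) lay above that of 0 hpi (1.55 to 14.5), with a ratio of 12.6 (4.73 to 47.6). C/EBPα there was 0 to 15.1 and called at 12 hpi alone, and C/EBPβ was at most 7.88. PU.1 and the C/EBP factors thus had their high values at separate sites of this locus.

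**Figure D4:**
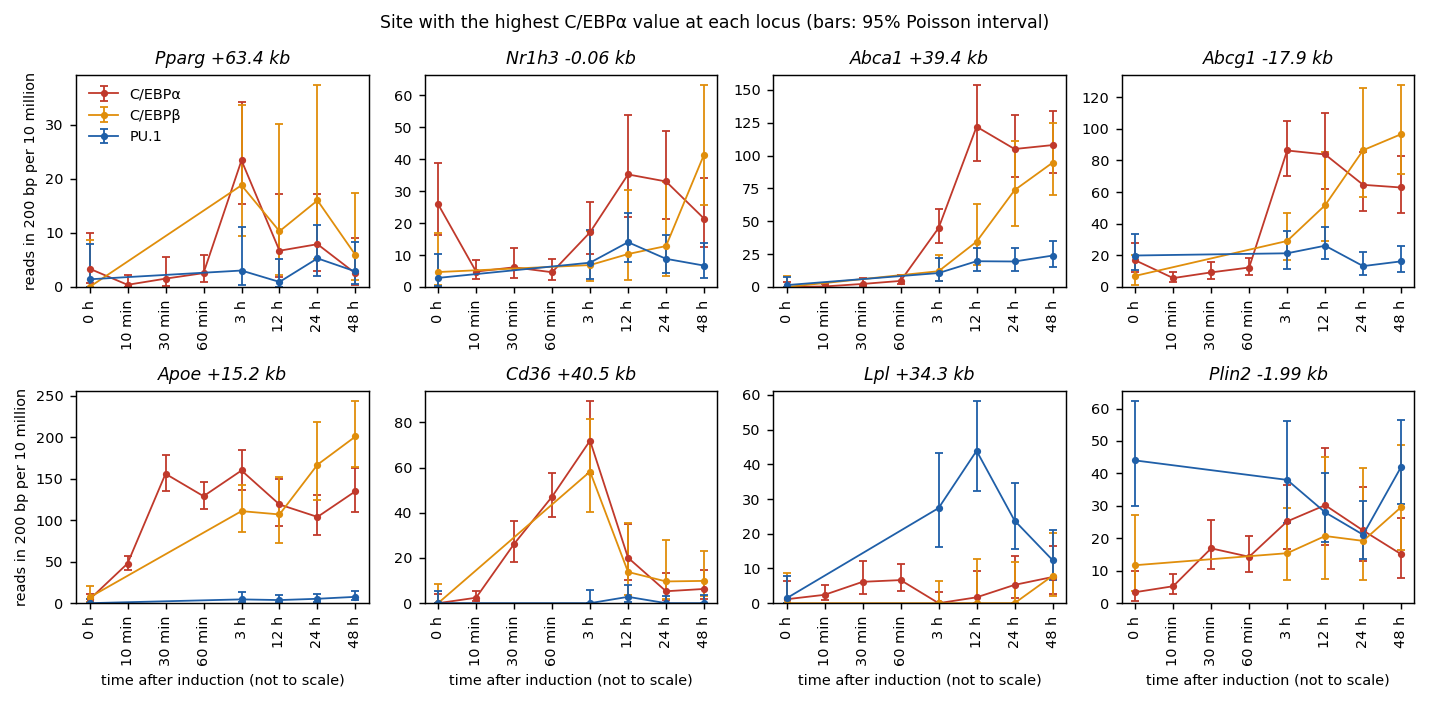
Reads in 200 bp per 10000000 for the 3 factors by time after induction (not to scale) at the site with the highest C/EBPα value of each locus, with 95% Poisson intervals of 1 library per point. C/EBPα reached 156 at 30 min at *Apoe*, 122 at 12 h at *Abca1* and 71.9 at 3 h at *Cd36*, where it was 6.29 at 48 h.

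*Cd36* (ENSMUSG00000002944, chr5:17287508-17394777, minus strand) encodes the scavenger receptor for oxidised LDL and long-chain fatty acids. All its 15 sites were intronic in the annotated span, 10 of them called for C/EBPα, 9 for C/EBPβ and 10 for PU.1, where 37.8%, 18.4% and 76.9% of all sites of the series were. Distances run from the outermost of several annotated starts. The +40.5 and +49.2 kb sites lay 1289 and 3857 bp from an inner start of *Cd36*. The strongest site was at +49.2 kb (chr5:17345471-17345670), which was bound by PU.1 before induction. Its sequence and that of *Plin2* at -1.99 kb (chr4:86317851-86318050) are shown because both were called for PU.1 at 0 hpi and gained C/EBPα calls at 30 min. Capitals mark the PU.1 consensus GAGGAAGT and the AP-1 words on either strand of mm9, in the plus strand.
*Cd36* +49.2 kb: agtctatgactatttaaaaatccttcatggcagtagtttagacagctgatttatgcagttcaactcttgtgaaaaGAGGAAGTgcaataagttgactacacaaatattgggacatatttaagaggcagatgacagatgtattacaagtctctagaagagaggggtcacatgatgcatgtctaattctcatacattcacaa
*Plin2* -1.99 kb: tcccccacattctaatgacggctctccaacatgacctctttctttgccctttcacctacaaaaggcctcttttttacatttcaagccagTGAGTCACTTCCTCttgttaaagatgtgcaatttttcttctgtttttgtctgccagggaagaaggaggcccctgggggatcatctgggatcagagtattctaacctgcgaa

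The PU.1 match lay 21 bp from the centre at *Cd36* and 1 bp at *Plin2*, where it overlaps the AP-1 word by 1 base. At +49.2 kb of *Cd36*, PU.1 was 302, 240, 163, 119 and 225 at 0, 3, 12, 24 and 48 hpi. It was highest at 0 hpi (263 to 345) and the ratio of 48 to 0 hpi was 0.743 (0.615 to 0.899), a difference beyond counting error that stayed under 2-fold. C/EBPα was 0 at 0 hpi, 6.42, 48.5 and 50.7 at 10, 30 and 60 min, and 43.1, 25.1, 21.1 and 30.2 at 3, 12, 24 and 48 hpi, at least 8.92-fold higher at 48 than at 0 hpi (6.71). C/EBPβ was 0, 22.2, 10.3, 28.8 and 37.4, at least 5.35-fold higher (3.94).

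The +40.5 kb site of *Cd36* (chr5:17354221-17354420) had the highest C/EBPα value of the gene and kept neither C/EBP factor. C/EBPα was 0 at 0 hpi, 2.41, 26.2 and 47.1 at 10, 30 and 60 min, and 71.9, 20.1, 5.27 and 6.29 at 3, 12, 24 and 48 hpi. The interval of 3 hpi (57 to 89.5) lay above that of 48 hpi (2.04 to 14.7). C/EBPβ was 0, 58.2, 13.8, 9.61 and 9.85, with 3 hpi (40.3 to 81.3) above 48 hpi (3.2 to 23). PU.1 was at most 2.8 and was never called there.

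C/EBPβ at *Cd36* was highest at +8.83 kb, where it was 2.34, 1.71, 13.8, 38.4 and 78.8 at 0, 3, 12, 24 and 48 hpi, a ratio of 33.8 (5.72 to 1370) with 1 read at 0 hpi. PU.1 was 0, 12.2, 31.7, 18.5 and 51.6 at this site, at least 12.1-fold higher at 48 hpi (9.53). C/EBPα was 0 at 0 hpi and 11.3 at 48 hpi, at least 3.34-fold higher (2.2). The +31.5 and +34.2 kb sites were likewise higher at 48 hpi for all 3 factors. At +31.5 kb, C/EBPα was 1.13 at 0 hpi and 35.2 at 48 hpi (ratio 31.2, 5.16 to 1280, with 1 read at 0 hpi), C/EBPβ was 0 and 45.3, and PU.1 was 1.42 and 38.2. At +34.2 kb, C/EBPα was 1.13 and 33.9, C/EBPβ 2.34 and 49.3, and PU.1 2.84 and 25.8. At +46.6 kb, PU.1 was 29.8 at 0 hpi and 122 at 48 hpi, a ratio of 4.11 (2.58 to 6.86). Of the 10 PU.1 sites of *Cd36*, 1 was called at 0 hpi and 9 at 48 hpi. In the series 42.6% and 57.0% of PU.1 sites were called at these times. The 0 hpi library was shallower than that of 48 hpi. The +46.6 kb site was not called at 0 hpi despite its value of 29.8, from 21 reads where a bin needed 9. A call also needed 4 times the density of the surrounding 10 kb, which takes in the strong +49.2 kb site. With a 2-fold local rule, 14 member sites had PU.1 at 0 hpi in place of 13. PU.1 at +52.9 kb was likewise uncalled at 48 hpi with 30.6. These counts of calls thus depend on the calling rule as well.

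*Lpl* (ENSMUSG00000015568, chr8:71404390-71431347, plus strand), the gene of the lipase that frees fatty acids from triglyceride-rich lipoproteins, had the fewest sites. Both lay downstream of the gene. At +34.3 kb (chr8:71438551-71438750), PU.1 was 1.42, 27.4, 43.9, 23.8 and 12.4 at 0, 3, 12, 24 and 48 hpi, highest at 12 hpi (32.2 to 58.3) and not called at 48 hpi (6.61 to 21.2). C/EBPα was called there at 60 min alone, with 6.65 reads, and its highest value was 7.54 at 48 hpi, uncalled in the shallower library. At +28.1 kb PU.1 was 0 at 0 hpi and 14.3 at 48 hpi, at least 3.37-fold higher (2.42). C/EBPβ was called at neither site and was at most 7.88.

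*Plin2* (ENSMUSG00000028494, chr4:86294290-86315964, minus strand) encodes perilipin 2, the coat protein of lipid droplets, and carried PU.1 at 3 sites before induction. At -1.99 kb, PU.1 was 44, 38, 28, 21.1 and 42 at 0, 3, 12, 24 and 48 hpi, with a ratio of 0.956 (0.59 to 1.57). C/EBPα was 3.38 at 0 hpi, 5.22, 16.9 and 14.3 at 10, 30 and 60 min, and 25.2, 30.2, 22.4 and 15.1 at 3, 12, 24 and 48 hpi. It was called from 30 min in every library, but the intervals of 0 and 48 hpi overlapped (ratio 4.46, 1.2 to 24.6). C/EBPβ was 11.7 at 0 hpi and 29.6 at 48 hpi, with overlapping intervals as well. The highest PU.1 value was at -13.4 kb (chr4:86329281-86329480), with 53.9, 53.2, 53.2, 39.6 and 49.7, where C/EBPα was at most 8.38 and uncalled. A PU.1 site at +1.28 kb in an intron had 34, 33.5, 52.3, 37 and 19.1 reads.

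**Figure D5:**
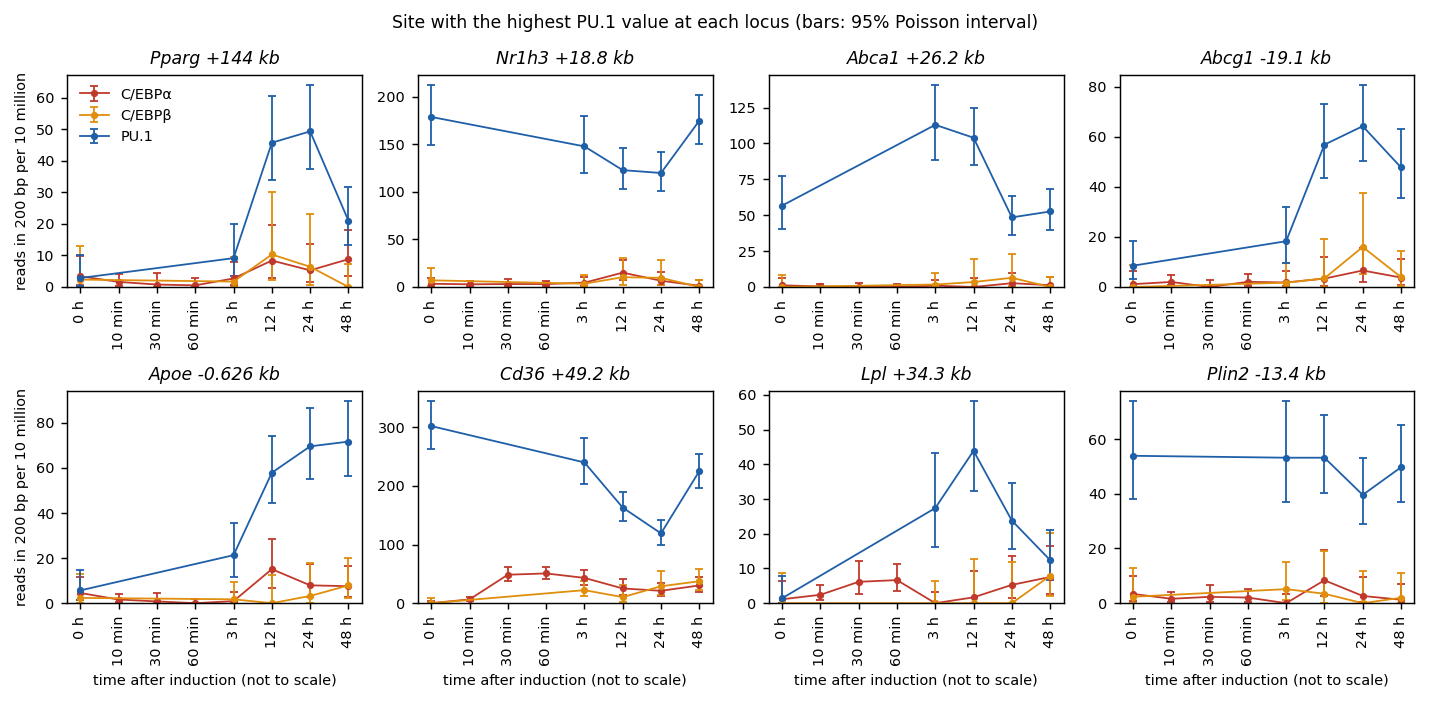
Reads in 200 bp per 10000000 for the 3 factors by time after induction (not to scale) at the site with the highest PU.1 value of each locus, with 95% Poisson intervals of 1 library per point. PU.1 at *Nr1h3* (179 and 175), *Abca1* (56.7 and 52.6) and *Plin2* (53.9 and 49.7) was similar at 0 and 48 h, with overlapping intervals, whereas at *Apoe* it was 5.67 and 71.7.

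At 0 hpi PU.1 was called at 13 of its 54 sites, 24.1%, where 42.6% of all PU.1 sites of the series were called at that time, and 12 of the 13 were still called at 48 hpi (71.5% in the series). Of the 32 C/EBPα sites, 5 had PU.1 called at 0 hpi, against 24.5% of C/EBPα sites of the series with the call in the site itself. The count was 7 when a PU.1 call within 1000 bp was counted. It was 4 when the called bins of both factors had to overlap the 200 bp around the centre. Neither of these counts has a share of the series beside it. Of the 12 C/EBPα sites of 48 hpi, 3 had PU.1 at 0 hpi (35.0%), 7 had PU.1 at 48 hpi (60.3%) and 12 had C/EBPβ at 48 hpi (79.5%). The 3 were those at -17.9 kb of *Abcg1*, +49.2 kb of *Cd36* and -1.99 kb of *Plin2*. At the 18 member sites called for both C/EBPα and PU.1, C/EBPα was called first at 12, PU.1 first at 5 and both at the same time at 1. The 12 include the +46.6 kb site of *Cd36*, where PU.1 at 0 hpi was not called but had a value of 29.8 (18.4 to 45.5) while C/EBPα had no read, so the order of calls is not the order of first reads. In the series the shares were 34.8%, 53.2% and 12.0%. PU.1 was not profiled here at 10, 30 and 60 min, so that a C/EBPα call at those times precedes any later PU.1 call by construction.

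The C/EBP consensus occurred within 200 bp at 11 of the 32 C/EBPα sites (34.4%), against 32.9% of the C/EBPα sites of the series and 18.4% of all sites. The PU.1 consensus occurred at 11 of the 54 PU.1 sites (20.4%), against 24.4% of PU.1 sites and 19.2% of all sites. An AP-1 word was found at 9 of the 70 sites (12.9%), all of them called for PU.1, against 7.55% of all sites. These shares are close to those of the series or rest on few sites, and a match is a description of the letters.

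The other genes of the pathway were taken from a list of 40, from nuclear receptors and lipoprotein receptors to enzymes of cholesterol esters and fatty acids. C/EBPα was called at 9 of the 40 loci at 0 hpi, 21 at 10 min, 26 at 30 min, 30 at 60 min, 30 at 3 hpi, 29 at 12 hpi, 25 at 24 hpi and 19 at 48 hpi. C/EBPβ was called at 1, 11, 10, 19 and 26, and PU.1 at 31, 36, 38, 37 and 37 at 0, 3, 12, 24 and 48 hpi. At 48 hpi these were 47.5%, 65.0% and 92.5% of the list for C/EBPα, C/EBPβ and PU.1. Of all protein-coding loci, 25.4%, 36.7% and 63.1% had a site then, with lengths not matched. At 10 min the list had C/EBPα at 52.5% of loci, against 23.6% of all loci. The 8 members had it at 2 loci, near the share of all loci. The loci of *Apoc1* and *Apoc2* overlap that of *Apoe*, so the list and the members share sites there. The highest C/EBPα values at 48 hpi were 135 at the site shared by *Apoc1*, *Apoc2* and *Apoe*, 98.1 at *Scarb1*, the HDL receptor, 83 at *Soat1*, which esterifies cholesterol, and 81.7 at *Lrp1*, a receptor of ApoE-rich lipoproteins. The highest PU.1 values at 0 hpi were 187 at *Nr1h2*, which encodes LXRβ, 172 at *Apoc2*, 169 at *Soat1*, 167 at *Scarb2* and 147 at *Pltp*, the phospholipid transfer protein. *Vldlr* had no site of any factor.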

How the data were processed

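Per the methods of the study and the submitters' processing notes, which name Bowtie, HOMER and mm9, the authors aligned the reads to mm9 and deposited 1 line per aligned read, with chromosome, start, end and strand. The methods of the study also state that identical sequence tags and tags without a unique alignment were removed. Lines over a region are thus counts of the reads kept, with no control library and no normalization. Aligner versions were not given in the sources used here. Reads on chrM and unplaced contigs, and 1 line without a position, were left out.

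The 5′ end of each read was moved 75 bp inward and 1 read was kept per position and strand. Duplicates left among the deposited lines made up at most 2.51% of a library, which does not measure duplication before the filter of the study. Called bins of all libraries, with a local Poisson p of 0.0001 and a genome of 2000000000 bp, were merged across 1 uncalled bin at most. The centre of a site was the position with most scaled reads over the 18 libraries, in steps of 10 bp. Ratios have exact 95% intervals, and 0 reads were set to 3 per library. Genes came from GENCODE vM1 on the same build. At each locus the sites with the highest value of each factor were described, and of the pathway genes the 5 with the highest C/EBPα at 48 hpi and the 5 with the highest PU.1 at 0 hpi. The members, lists and rules were chosen with earlier results of these data known. The caller was tested on simulated reads with a uniform background and isolated sites. That test does not cover a background that varies with GC content, or sites close to each other. Python 3.11.15, numpy 2.4.6, scipy 1.17.1 and pandas 2.3.3 were used.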

Additional observations from a re-analysis of the deposited data

How the results depend on the processing

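The counts were recomputed with all reads as deposited, a Poisson p of 1e-09, a 2-fold local rule, the tag thresholds of the study, a grid moved by 100 bp, thinned libraries, other locus widths, other windows, scaling to reads outside called regions, a shift of 50 bp and a 1.5-fold rule. Of 183 such comparisons of a count, 174 stayed within 1.5 times the reported value. The 183 include the counts of sites lower at 48 hpi, which stayed at 0. Given how the sites were chosen these could hardly change, so they show no stability. All reads as deposited could also differ little, since duplicates left in the deposited lines made up at most 2.51% of a library. With a Poisson p of 1e-09, PU.1 was called at 8 sites at 0 hpi in place of 13. Over the gene span alone, without the 20 kb on either side, the counts were 7 C/EBPα sites and 2 loci with one at 48 hpi, 24 and 8 PU.1 sites at 48 and 0 hpi, 3 C/EBPα sites with PU.1 at 0 hpi and 9 PU.1 sites higher at 48 hpi. With 50 kb on either side there were 21 PU.1 sites at 0 hpi and 17 C/EBPα sites with the consensus. A narrower or wider locus holds fewer or more sites by construction. Ratios of 48 to 0 hpi were recomputed only at the sites with the highest value of a factor, and only where they met the 2-fold rule. Of 80 such comparisons, 79 stayed within the intervals of the ratios, some of which are very wide. Ratios that did not meet the rule, and those at other sites, were not recomputed. The log2 ratio of C/EBPα at +39.4 kb of *Abca1* was 4.27 in 1000 bp, still higher.

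Further alternatives were chosen after seeing the data. The shorter word AGGAAGT was found at 17 PU.1 sites (31.5%), against 42.7% of PU.1 sites and 34.9% of all sites of the series. Without the libraries of 10, 30 and 60 min, 28 of the 32 C/EBPα sites remained. C/EBPα was called in 30 sites where the called bin had to overlap the 200 bp around the centre, and 4 of them had PU.1 at 0 hpi, in place of 5. With 1 library per factor and time, no library could be left out of a group and spread between cultures is unknown. No paired analysis was possible because the labels give no replicate numbers.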
